A study of Mus musculus with 12 samples.

Results

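The BCL2 family of apoptosis regulators was described by 10 genes, taken by symbol from a table of 23336 symbols measured in B16, an established mouse melanoma cell line. The 10 genes were Bbc3, Pmaip1, Bid, Bcl2l11 and Bad, which encode BH3-only proteins, Bax and Bak1, which encode the pore-forming effectors, and Bcl2, Bcl2l1 and Mcl1, which encode the anti-apoptotic members. B16 cells had been transiently transfected with Cas9 and either Adar sgRNA 1 or Non-targeting sgRNA 5, and were subcloned afterwards. The 4 groups, of 3 libraries each, were Adar-null cells (labelled Adar KO) with interferon-beta (IFNb, 1000 U/mL), Adar-null cells with vehicle (phosphate-buffered saline with albumin), control cells with IFNb and control cells with vehicle, all for 36 h. ADAR is an enzyme that converts adenosine to inosine in double-stranded RNA. With 1 guide per genotype, an effect of the genotype cannot be told apart from a difference between the subcloned populations. The labels do not state whether replicate libraries were grown separately, and p-values therefore reflect library-to-library spread alone, which may be technical.

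BCL2-family proteins decide whether the outer membrane of the mitochondrion is breached, the step that releases cytochrome c and starts the caspases in intrinsic apoptosis. BH3-only proteins sense damage, stress or death receptor signals and either bind the anti-apoptotic members or activate the effectors, BAX and BAK, which then form the pores. Much of this control acts on the proteins (cleavage, phosphorylation, turnover, relocation), which counts of RNA do not measure.

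Libraries held 5375649 to 7153480 counts each, and 11561 genes had enough of them for a test. Reads of Rn45s, a precursor of ribosomal RNA, made up 25.8% to 28.5% of counts in Adar-null libraries with IFNb and 24.9% to 25.3% in control libraries with IFNb, against 21.1% to 22.9% and 21.5% to 22.4% in the Adar-null and control libraries with vehicle. With Rn45s left out, the log2 fold change of Bbc3 between genotypes under IFNb was 2.77, as it was with Rn45s kept. Adar itself, the targeted gene, had 418, 422 and 383 CPM in Adar-null and 377, 384 and 392 CPM in control libraries with IFNb, and 65.6, 56.3 and 56.7 CPM in Adar-null and 74.3, 70.3 and 71.9 CPM in control libraries with vehicle. CPM, the unit of level used here, divides each count by the total of its library after scaling by the trimmed mean of M values (TMM). The lesion is not described in the labels, and a count over a whole gene does not check a small one. All 7 melanocyte markers were counted, with sums of 10432 to 11147 CPM in Adar-null libraries with IFNb, 15254 to 15440 CPM in Adar-null libraries with vehicle, 13362 to 13660 CPM in control cells with IFNb and 15641 to 16469 CPM in control cells with vehicle. Leukocyte markers summed to at most 1.32 CPM in any library, with Cd3e at 0. Fibroblast, endothelial and epithelial markers had sums of 20.1 to 25.0 CPM in Adar-null libraries with IFNb, 16.7 to 22.1 CPM in Adar-null libraries with vehicle, 9.44 to 13.0 CPM in control libraries with IFNb and 11.2 to 18.6 CPM in control libraries with vehicle, with Epcam and Krt18 at 0. The IFNb groups did not overlap in that sum, and of the 2 genes of the list that were tested, Col1a2 was higher (log2 fold change 1.09 ± 0.19, edgeR adjusted p = 4.35e-06) and Pdgfra lower (-1.31 ± 0.56, 0.0197) in Adar-null than in control cells with IFNb. The melanocyte markers did not move as one: in the same comparison, in which 36.2% of all tested genes were lower, 6 of the 7 were lower, from -1.01 for Tyr to -0.13 for Dct, and Sox10 was not called (0.04). IFNb lowered 6 of them in Adar-null cells, against 35.7% of all genes lower, and 3 in control cells, against 26.5% of all genes lower, and Tyrp1 was not called in either (0.00 and 0.02). The marker genes named with a fold change were chosen after their values were seen, and the part of these marker differences in the results was not tested. In such bulk samples fewer cells of a type and less RNA per cell cannot be told apart.

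Of the 10 genes, 9 had enough counts for a test. Pmaip1 encodes NOXA, a BH3-only protein that binds MCL1, and it had 0 counts in each of the 12 libraries. A total of 3 counts over a group, the limit that a count of 0 allows, corresponds to 0.157 to 0.173 CPM depending on the group and covers counting error only. Pmaip1 was therefore not detected in these counts in any group, and no fold is given for it. The annotation used for counting is not given, and a gene missed in counting would also show 0, which was not tested. In the annotation used for lengths (GENCODE M21, GRCm38), Bbc3 lies at chr7:16308393-16318205 and Bax at chr7:45461697-45466898, Bid at chr6:120891930-120916853, Bcl2l11 at chr2:128126038-128162547 and Bcl2l1 at chr2:152780668-152831728. Bad lies at chr19:6941861-6951899, Bak1 at chr17:27019810-27029009, Bcl2 at chr1:106538178-106714274 and Mcl1 at chr3:95658788-95663176.

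Bbc3 stood apart in Adar-null cells with IFNb. Bbc3 encodes PUMA, a BH3-only protein that binds all the main anti-apoptotic members and is a well-known target of p53. Adar-null libraries with IFNb had 70.1, 80.4 and 73.6 CPM of Bbc3, and Adar-null libraries with vehicle had 11.6, 14.6 and 14.6 CPM. Control libraries had 10.3, 11.3 and 11.2 CPM with IFNb and 12.7, 15.2 and 15.0 CPM with vehicle. The 3 Adar-null libraries with IFNb lay far above the other 9, which all lay close together. Under IFNb, Bbc3 was 6.82-fold higher in Adar-null than in control cells, a log2 fold change of 2.77 ± 0.12 (standard error; edgeR quasi-likelihood test, Benjamini-Hochberg adjusted p = 2.32e-49). Within Adar-null cells IFNb raised Bbc3 5.47-fold (log2 fold change 2.45 ± 0.11, adjusted p = 4.57e-46 by edgeR). Within control cells the log2 fold change was -0.38 ± 0.14, a fall (adjusted p = 0.0195 by edgeR) that ended without control IFNb library 1 (0.0581) or without control vehicle library 2 (0.0844) or 3 (0.0637). The responses of the genotypes differed by 2.83 ± 0.18 on the log2 scale (adjusted p = 5.4e-29 by edgeR). Under vehicle the genotypes overlapped, with a log2 fold change of -0.06 and a 95% interval of -0.33 to 0.21.

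The promoter of Bbc3 is shown because this gene moved most among the members. It is the 250 bases before the most upstream of the 3 RefSeq starts of Bbc3 (GRCm38.p6, chr7:16309333-16309582, plus strand). The window lies inside the GENCODE span of Bbc3 (chr7:16308393-16318205), which begins further upstream, and its overlap with exons is not given here. The capitals mark a match to the NF-kB site described after it.
Bbc3 promoter: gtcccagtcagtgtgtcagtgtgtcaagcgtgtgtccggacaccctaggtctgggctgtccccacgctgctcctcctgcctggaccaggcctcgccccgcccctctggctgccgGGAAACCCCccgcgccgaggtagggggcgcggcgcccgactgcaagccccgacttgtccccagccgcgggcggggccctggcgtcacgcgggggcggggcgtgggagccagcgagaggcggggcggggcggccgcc

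The window held 76.4% G and C. RefSeq promoters were matched for 9 of the 10 genes, 15 windows in all, and both strands of each window were searched for 3 motifs. The interferon-stimulated response element, written GAAANNGAA, was in 0 of the 15 windows, against 7.13% of all 32851 RefSeq promoter windows. The C/EBP-ATF element, written TGATGNAAN, was in 0 of the 15, against 3.44% of all windows. The NF-kB site, written GGGNNTTCC, was in 2 of the 15, one of Bbc3 and one of Bcl2l1, against 4.98% of all windows. No window held more than 1 of the 3 motifs. The 29 bases around each kB match are set side by side, each read along its gene (GRCm38.p6, chr7:16309437-16309465 on the plus strand and chr2:152830821-152830849 on the minus strand), with the match in capitals.
Bbc3: ctggctgccgGGAAACCCCccgcgccgag
Bcl2l1: agattcacttGGAAGTCCCtttagggttt

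In both genes the match read along the gene was the reverse complement of the pattern as written. It began 136 bases before the most upstream RefSeq start of Bbc3 and 122 bases before a RefSeq start of Bcl2l1. The Bcl2l1 window (chr2:152830718-152830967) also lies inside the GENCODE span of its gene (chr2:152780668-152831728). It may lie in an exon of another isoform, and its overlap with exons is not given here. A match of letters is a description of the window and shows no binding.

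Bid, whose protein is cut by caspase-8 and carries death receptor signals to the mitochondrion, was raised by IFNb in both genotypes. Adar-null libraries had 50.4, 46.9 and 46.8 CPM of Bid with IFNb and 15.8, 17.8 and 16.9 CPM with vehicle. Control libraries had 22.6, 25.5 and 25.7 CPM with IFNb and 14.8, 16.8 and 15.5 CPM with vehicle. The IFNb libraries of each genotype lay above all vehicle libraries, and those of Adar-null cells above those of control cells. Bid rose 2.83-fold in Adar-null cells (log2 fold change 1.50 ± 0.11, edgeR adjusted p = 2.27e-27) and 1.57-fold in control cells (0.65 ± 0.12, 9.92e-07). The response was larger in Adar-null cells by 0.85 ± 0.16 on the log2 scale (edgeR adjusted p = 1.65e-06). Exons of Bid share 628 bases, 17.7% of their length, with Bcl2l13 on the other strand, and the strand setting of the counting is not given in the sources used here. Bcl2l13 had log2 fold changes of -0.00 with IFNb in Adar-null and -0.03 in control cells (edgeR adjusted p = 0.935 and 0.675). Under IFNb, Bcl2l13 was higher in Adar-null than in control cells (0.12 ± 0.06, edgeR adjusted p = 0.0165).

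Bcl2l11 and Bad, the other BH3-only genes, had low counts, and of these Bcl2l11 differed between genotypes under IFNb. Bcl2l11 encodes BIM, a BH3-only protein that also activates the effectors. Its levels were 13.1, 10.1 and 9.49 CPM in Adar-null libraries with IFNb, 10.5, 12.1 and 11.4 CPM in Adar-null libraries with vehicle, 16.7, 16.7 and 16.9 CPM in control libraries with IFNb, and 12.1, 14.0 and 13.4 CPM in control libraries with vehicle. The control IFNb libraries were the highest of all, and the groups of Adar-null cells overlapped. Under IFNb, Bcl2l11 was lower in Adar-null than in control cells (log2 fold change -0.64 ± 0.14, edgeR adjusted p = 3.25e-05). In control cells IFNb raised it by 0.35 ± 0.14 (edgeR adjusted p = 0.0264), a call that ended with library size as the only scaling (0.0853), with DESeq2 (0.0843) and without control IFNb library 3 (0.0579) or control vehicle library 1 (0.107). The Adar-null response was -0.08, with a 95% interval of -0.39 to 0.22, and the difference of responses missed the threshold (-0.43 ± 0.21, edgeR adjusted p = 0.0653), but passed it without Adar-null IFNb library 1 (0.018).

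BAD, the product of Bad, is held inactive by phosphorylation downstream of growth factors. Bad averaged 16.1 ± 1.14 CPM in Adar-null cells with IFNb, 12.7 ± 2.01 CPM with vehicle, 15.7 ± 1.59 CPM in control cells with IFNb and 13.1 ± 2.26 CPM with vehicle (SD, n = 3 each). Its genotype difference under IFNb was 0.04 on the log2 scale, with a 95% interval of -0.23 to 0.30. The Adar-null response of 0.33 ± 0.14 passed the edgeR test (adjusted p = 0.0273), but not with library size as the only scaling (0.112), with DESeq2 (0.0732), or without Adar-null IFNb library 3 (0.14) or Adar-null vehicle library 1 (0.2). The control response of 0.26 ± 0.14 did not pass (edgeR adjusted p = 0.11), except without control vehicle library 3 (0.0321). Exons of Bad share 524 bases, 20.5% of their length, with Gpr137 on the other strand, which was not called in any comparison.

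**Figure D1:**
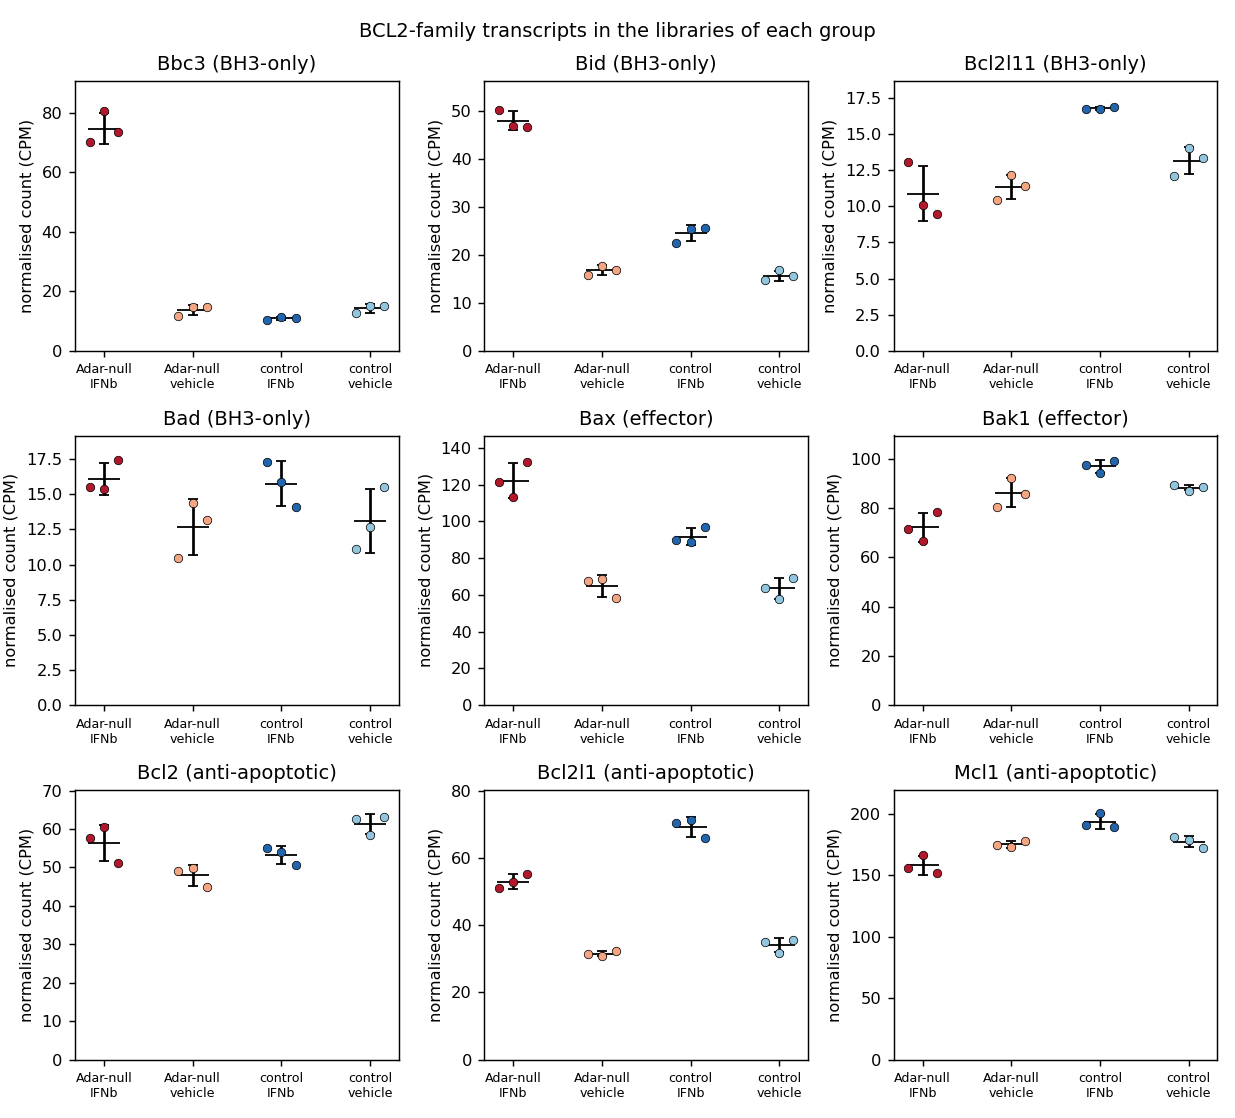
Normalised counts (CPM, linear axes from 0) of the 9 detected BCL2-family genes in each library of the 4 groups; points are libraries, the horizontal line is the mean and the bar the SD of 3 libraries. The 3 Adar-null libraries with IFNb lie between 70.1 and 80.4 CPM of Bbc3, and the other 9 at 15.2 CPM or less.

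The effectors Bax and Bak1 differed in opposite directions between genotypes under IFNb. Bax had 121, 113 and 132 CPM in Adar-null libraries with IFNb, 67.5, 68.9 and 58.3 CPM in Adar-null libraries with vehicle, 89.7, 88.7 and 96.9 CPM in control libraries with IFNb, and 63.6, 57.7 and 69.3 CPM in control libraries with vehicle. Both IFNb groups lay above both vehicle groups, and Adar-null above control libraries with IFNb. Bax rose 1.87-fold in Adar-null cells (log2 fold change 0.91 ± 0.06, edgeR adjusted p = 2.22e-24) and 1.45-fold in control cells (0.53 ± 0.07, 4.91e-11), a difference of responses of 0.37 ± 0.09 (0.000367). Under IFNb it was 1.33-fold higher in Adar-null than in control cells (0.41 ± 0.06, edgeR adjusted p = 2.23e-09). Exons of Bax share 192 bases with Gm45808 on the same strand, which is not analysed here.

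Bak1 had 71.6, 66.6 and 78.3 CPM in Adar-null libraries with IFNb, 80.5, 92.2 and 85.7 CPM in Adar-null libraries with vehicle, 97.6, 94.0 and 99.2 CPM in control libraries with IFNb, and 89.1, 86.9 and 88.7 CPM in control libraries with vehicle. The Adar-null IFNb libraries were the lowest and the control IFNb libraries the highest. Under IFNb, Bak1 was lower in Adar-null than in control cells (log2 fold change -0.43 ± 0.06, edgeR adjusted p = 1.54e-09). IFNb lowered it in Adar-null cells (-0.26 ± 0.07, edgeR adjusted p = 0.000149). The control response of 0.13 ± 0.06 missed the threshold (edgeR adjusted p = 0.0538), and passed it with Rn45s left out (0.0441), in a fit of the compared groups only (0.0379) or without control IFNb library 2 (0.0381). The responses differed by -0.40 ± 0.09 (edgeR adjusted p = 5.17e-05). Ggnbp1, which overlaps Bak1 on the other strand, had 6 to 12 counts per group.

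Mcl1 and Bcl2l1, anti-apoptotic genes, were lower in Adar-null than in control cells under IFNb, and Bcl2 was not called there. BCL-XL, the product of Bcl2l1, and BCL2 hold back the effectors and BH3-only proteins, as does MCL1, a short-lived protein. Bcl2l1 had 50.9, 52.8 and 55.2 CPM in Adar-null libraries with IFNb, 31.4, 30.9 and 32.4 CPM in Adar-null libraries with vehicle, 70.5, 71.4 and 65.9 CPM in control libraries with IFNb, and 35.0, 31.7 and 35.6 CPM in control libraries with vehicle. Both IFNb groups lay above both vehicle groups, and control above Adar-null libraries with IFNb. Bcl2l1 rose 1.68-fold in Adar-null cells (log2 fold change 0.75 ± 0.09, edgeR adjusted p = 1.86e-14) and 2.03-fold in control cells (1.03 ± 0.08, 6.14e-23). Under IFNb the difference between genotypes was -0.38 ± 0.07 (edgeR adjusted p = 9.63e-07). The difference of responses, -0.27 ± 0.12, passed the edgeR test (adjusted p = 0.0344) but not in 9 of 21 alternatives; over all 21 the adjusted p was between 0.019 and 0.114.

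Mcl1 had the most counts of the 10 genes. It had 156, 167 and 152 CPM in Adar-null libraries with IFNb, 174, 173 and 178 CPM in Adar-null libraries with vehicle, 191, 201 and 189 CPM in control libraries with IFNb, and 181, 179 and 172 CPM in control libraries with vehicle. The Adar-null IFNb libraries were the lowest and the control IFNb libraries the highest, with the vehicle groups between them. Under IFNb, Mcl1 was lower in Adar-null than in control cells by a log2 fold change of -0.29 ± 0.06 (edgeR adjusted p = 5.49e-08). IFNb lowered Mcl1 in Adar-null cells (-0.15 ± 0.06, edgeR adjusted p = 0.00508) and raised it in control cells (0.13 ± 0.06, 0.0198), a difference of -0.28 ± 0.08 (3e-04). The control call ended with upper-quartile scaling (0.073), with library size as the only scaling (0.392) and without control IFNb library 2 (0.0983) or control vehicle library 3 (0.0905).

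Bcl2 had 57.6, 60.4 and 51.1 CPM in Adar-null libraries with IFNb, 49.0, 49.8 and 44.9 CPM in Adar-null libraries with vehicle, 55.2, 53.9 and 50.7 CPM in control libraries with IFNb, and 62.6, 58.4 and 63.2 CPM in control libraries with vehicle. It was the only one of the 9 genes tested that differed between genotypes under vehicle, where all Adar-null libraries lay below all control libraries (log2 fold change -0.35 ± 0.08, edgeR adjusted p = 0.000635). That call held in the 16 alternatives run, with adjusted p of at most 0.0114. Under IFNb the genotypes overlapped, with a difference of 0.08 and a 95% interval of -0.06 to 0.23. IFNb raised Bcl2 in Adar-null cells (0.23 ± 0.08, edgeR adjusted p = 0.00482) and lowered it in control cells (-0.20 ± 0.07, 0.0144), a difference of responses of 0.43 ± 0.11 (0.00021). The Adar-null call ended with library size as the only scaling (0.0952) and without Adar-null IFNb library 2 (0.0893). The control call ended with DESeq2 (0.055) and without control IFNb library 3 (0.0808) or control vehicle library 3 (0.055). Exons of Bcl2 share 558 bases with D630008O14Rik on the other strand, which is not analysed here.

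**Figure D2:**
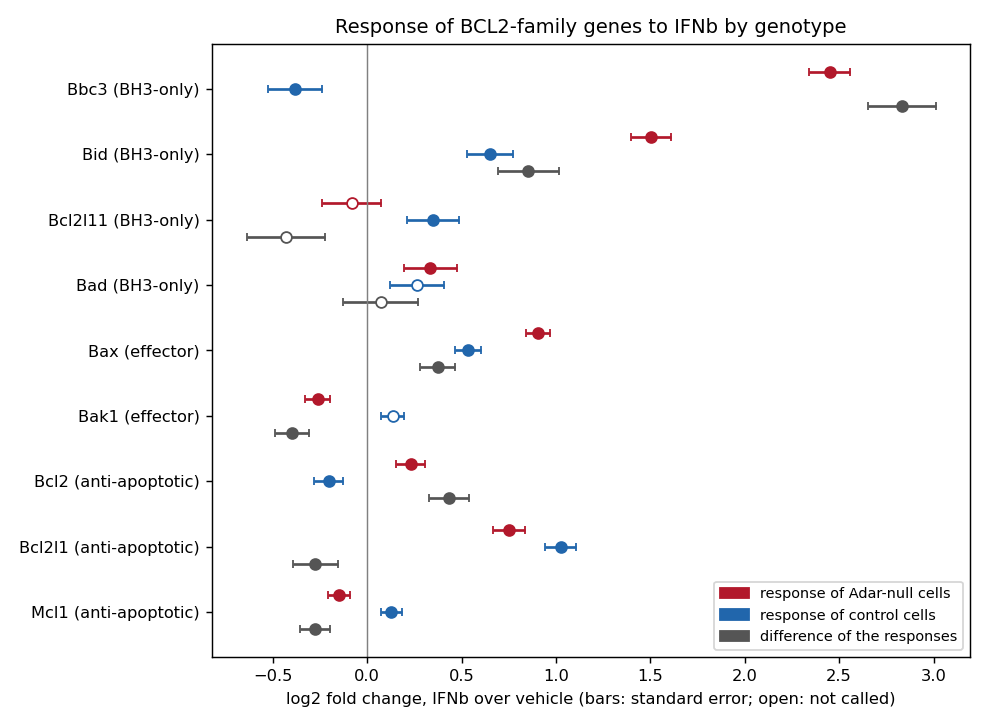
Log2 fold change of IFNb over vehicle for each tested gene in Adar-null cells and in control cells, with the difference of the responses; bars are standard errors, and open points did not pass an adjusted p of 0.05. The Bbc3 points lie at 2.45 and -0.38, and the Mcl1 and Bcl2 responses lie on opposite sides of 0 in the genotypes.

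Counted over the family, Adar-null against control cells under IFNb gave 3 genes higher (Bbc3, Bid, Bax) and 4 lower (Bcl2l11, Bak1, Bcl2l1, Mcl1) of 9 tested. Over all tested genes, 72.6% were called in this comparison, 36.4% higher and 36.2% lower, so the family's count is near that of the table. The libraries of the genotypes did not overlap for 7 of the 9 genes, against 74% of all genes. The median log2 fold change was 0.04 over the 9 genes and 0.02 over all genes. The BH3-only and effector genes had 3 higher and 2 lower of 6, and of the 3 anti-apoptotic genes 2 were lower and 1 was not called. Under vehicle, Bcl2 was the 1 gene called of the 9, against 6.51% of all genes called, 2.47% higher and 4.05% lower, and the 1 gene whose libraries did not overlap, against 22.3% of all genes.

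IFNb in Adar-null cells gave 6 genes higher (Bbc3, Bid, Bad, Bax, Bcl2, Bcl2l1) and 2 lower (Bak1, Mcl1), against 72.3% of all genes called, 36.6% higher and 35.7% lower; 8 of the 9 did not overlap, against 73.7% of all genes. In control cells it gave 5 higher (Bid, Bcl2l11, Bax, Bcl2l1, Mcl1) and 2 lower (Bbc3, Bcl2), against 53% of all genes called, 26.5% in each direction; here too 8 of the 9 did not overlap, against 57.6% of all genes. That even split of 3067 higher and 3066 lower genes became 2469 and 3796 with library size as the only scaling. The interaction, the Adar-null minus the control response, gave 4 higher (Bbc3, Bid, Bax, Bcl2) and 3 lower (Bak1, Bcl2l1, Mcl1), against 59.3% of all genes called, 28.6% higher and 30.7% lower. The comparisons share libraries, so these counts are not independent of each other. The sizes differed among the genes: the absolute log2 fold change between genotypes under IFNb had a median of 0.46 over all genes, above which lay Bbc3, Bid and Bcl2l11.

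**Figure D3:**
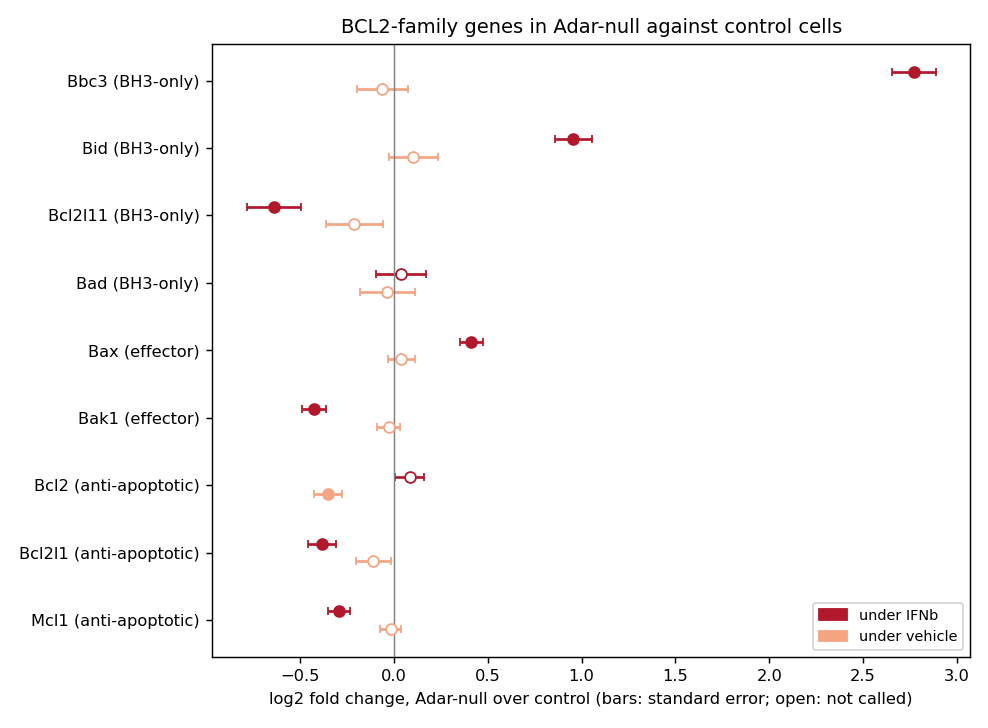
Log2 fold change of Adar-null over control cells for each tested gene, under IFNb and under vehicle; bars are standard errors, and open points did not pass an adjusted p of 0.05. Bbc3 lies at 2.77 and Bid at 0.96 under IFNb, and Bcl2, at -0.35, is the only filled point under vehicle.

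Levels were compared between genes as CPM per kilobase of annotated exon (GENCODE M21, GRCm38). In Adar-null cells with IFNb the order was Bax at 77.5 ± 6.06, Mcl1 at 46.2 ± 2.25, Bbc3 at 35.2 ± 2.48, Bak1 at 30.0 ± 2.44, Bid at 13.5 ± 0.571, Bcl2l1 at 11.6 ± 0.467, Bad at 6.29 ± 0.447, Bcl2 at 6.16 ± 0.522 and Bcl2l11 at 1.35 ± 0.239 CPM per kb (SD, n = 3 each). Bad and Bcl2 overlapped over libraries, and the other neighbours in that order did not. The order in each group rests on the length used and was not recomputed with another. The longest transcript has 2415 bases for Bid and 2568 for Bcl2l1, against 3550 and 4586 bases of annotated exon. For Bax it has 1100 against 1576 bases, and for Mcl1 both lengths are 3418 bases. In Adar-null cells with vehicle, Mcl1 had 51.3 ± 0.784, Bax 41.2 ± 3.65 and Bak1 35.8 ± 2.44 CPM per kb, while Bbc3, with 6.42 ± 0.809, overlapped Bcl2l1, with 6.88 ± 0.171. In control cells with IFNb, Bax had 58.2 ± 2.83 and Mcl1 56.6 ± 1.81 CPM per kb, which overlapped, followed by Bak1 with 40.3 ± 1.11 and Bcl2l1 with 15.1 ± 0.644, and Bbc3 had 5.14 ± 0.248. In control cells with vehicle, Mcl1 had 51.9 ± 1.35, Bax 40.3 ± 3.69 and Bak1 36.7 ± 0.479 CPM per kb, and Bbc3 had 6.72 ± 0.662. Bbc3 thus had rank 3 of the 10 genes in Adar-null cells with IFNb and rank 8 in control cells with IFNb.

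Summed per length, the pro-apoptotic genes had 164 ± 7.47 CPM per kb in Adar-null cells with IFNb, 94.5 ± 5.69 in Adar-null cells with vehicle, 119 ± 3.53 in control cells with IFNb and 94.9 ± 4.55 in control cells with vehicle. The anti-apoptotic genes summed to 63.9 ± 2.56, 63.4 ± 0.670, 77.6 ± 2.48 and 66.0 ± 1.25 CPM per kb in the same order of groups. The ratio of the sums was 2.57, 2.36 and 2.78 in Adar-null libraries with IFNb, 1.45, 1.61 and 1.42 in Adar-null libraries with vehicle, 1.52, 1.45 and 1.63 in control libraries with IFNb and 1.38, 1.39 and 1.54 in control libraries with vehicle. The Adar-null libraries with IFNb lay above all others, and the other 3 groups overlapped. With the longest transcript of each gene as its length, a setting chosen after seeing the data, the mean ratios were 2.88, 1.71, 1.69 and 1.63 in that order. Bbc3 made up 62.4% ± 2.42 of the BH3-only sum in Adar-null cells with IFNb, 36.6% ± 1.02 in Adar-null cells with vehicle, 25.3% ± 0.975 in control cells with IFNb and 37.5% ± 0.818 in control cells with vehicle. No test was run on these sums, and a sum of RNA does not measure the proteins or their binding.

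**Figure D4:**
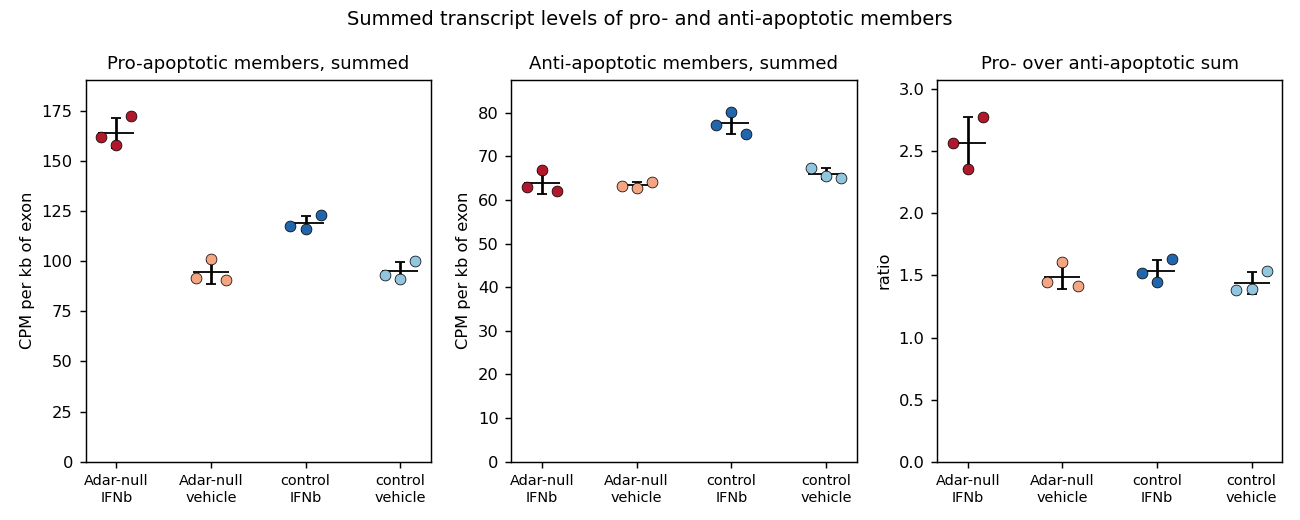
CPM per kb of exon summed over the pro-apoptotic and over the anti-apoptotic genes, and the ratio of the sums, in each library of the 4 groups (axes from 0; line, mean; bar, SD of 3 libraries). The ratio lies between 2.36 and 2.78 in Adar-null cells with IFNb and between 1.38 and 1.63 in the other 9 libraries.

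Ratios of gene pairs, within a role and across roles, differed among the groups. The ratio of Bax to Bak1 per length was 2.59 ± 0.00872 in Adar-null cells with IFNb, 1.15 ± 0.121 with vehicle, 1.45 ± 0.0436 in control cells with IFNb and 1.10 ± 0.0904 with vehicle. The ratio of Bcl2l1 to Bcl2 was 1.89 ± 0.233 in Adar-null cells with IFNb, 1.32 ± 0.108 with vehicle, 2.60 ± 0.0461 in control cells with IFNb and 1.11 ± 0.0217 with vehicle. Bbc3 over Mcl1 was 0.761 ± 0.0314 in Adar-null cells with IFNb, 0.125 ± 0.0154 with vehicle, 0.0909 ± 0.00400 in control cells with IFNb and 0.130 ± 0.0150 with vehicle. Across the 12 libraries, log2 CPM of Bbc3 had a Pearson r of 0.864 with Bid and -0.869 with Bak1. The libraries share the 4 groups, so these coefficients describe the group pattern.

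For each tested gene, the 2 tested genes most like it over the 12 libraries were taken by Pearson r of log2 CPM. For Bbc3 they were Spty2d1 (r = 0.994), with means of 143, 76.2, 66.3 and 76.7 CPM in Adar-null IFNb, Adar-null vehicle, control IFNb and control vehicle cells, and Gabarapl1 (0.994), with means of 177, 80.8, 71.1 and 79.5 CPM. Gabarapl1 encodes an ATG8-family protein of autophagosomes. For Bid they were Per1 and Nbr1 (0.992 and 0.991), for Bax H13 and Nol12 (0.986 and 0.984), and for Bcl2l1 Tspo and Ehd4 (0.991 and 0.990). Bak1 was most like Rpn2 and Dbn1 (0.972 and 0.966), Mcl1 like Ptplad1 and Acot1 (0.972 and 0.962), and Bcl2l11 like Ncald and Mpp2 (0.976 and 0.930). The likeness was lowest for Bad, with Dok5 and 1700123O20Rik (0.888 and 0.886), and for Bcl2, with Mtap6 and Pard6b (0.860 and 0.837).

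Other genes of the BCL2 family were detected in part. Of 16 further family genes, 6 were tested, and under IFNb 2 were higher and 3 lower in Adar-null than in control cells, against 36.4% and 36.2% of all tested genes. Mean levels in Adar-null IFNb, Adar-null vehicle, control IFNb and control vehicle cells were 201, 202, 185 and 188 CPM for Bcl2l13. They were 43.3, 51.8, 41.9 and 50.3 CPM for Bcl2l2, and 16.7, 10.8, 12.7 and 12.5 CPM for Bmf. Bmf, named here after its values were seen, was higher in Adar-null than in control cells under IFNb (0.40 ± 0.14, edgeR adjusted p = 0.00839). The sums of pro- and anti-apoptotic levels leave these genes out. Bnip3, which encodes a mitochondrial receptor for mitophagy, had 8.16 ± 2.18 CPM in Adar-null cells with IFNb, 74.3 ± 10.7 CPM in Adar-null cells with vehicle, 65.3 ± 0.996 CPM in control cells with IFNb and 107 ± 8.73 CPM in control cells with vehicle. Its log2 fold change under IFNb was -2.97 ± 0.15 between genotypes, and that of its relative Bnip3l was -1.11 ± 0.08, both past the edgeR test. Bnip3 (-0.53 ± 0.07) and Bnip3l (-0.34 ± 0.06) were also lower in Adar-null cells under vehicle. Bik, Hrk, Bok, Bcl2l10, Bcl2l14 and Bcl2l15 had 2 to 32 counts each over the 12 libraries, and the 4 Bcl2a1 genes, near-identical copies among which reads may be divided, had 0.

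Downstream of the mitochondrion, 15 genes of the apoptosome, the caspases and their inhibitors were tested. Under IFNb, 3 of them were higher and 6 lower in Adar-null than in control cells, against 36.4% and 36.2% of all tested genes. Birc5, which encodes survivin, a protein of dividing cells, had a mean of 4.98 ± 0.867 CPM in Adar-null cells with IFNb, against 61.1 ± 4.34 CPM in control cells with IFNb (log2 fold change -3.60 ± 0.16). Birc2, which encodes the ubiquitin ligase cIAP1, was higher (1.34 ± 0.10). With IFNb, 4 genes of the list rose and 5 fell in Adar-null cells, where 72.3% of all tested genes were called, and 5 rose and 5 fell in control cells, where 53% were called, with Birc3 up in both (1.60 ± 0.40 and 1.18 ± 0.45, edgeR adjusted p = 7.84e-05 and 0.015). Birc3 had few counts: 63 with IFNb and 21 with vehicle over the Adar-null libraries, and 43 and 17 over the control libraries.

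Among 7 tested genes of the death receptor arm that acts through Bid, IFNb gave 4 higher and 1 lower in each genotype, against 72.3% of all tested genes called in Adar-null and 53% in control cells. The genes called were not all the same: Tnfrsf1a, a TNF receptor named here after its values were seen, was called in Adar-null cells (0.59 ± 0.06) and not in control cells (0.11 ± 0.06, edgeR adjusted p = 0.112), and Casp8 in control cells (0.60 ± 0.07) and not in Adar-null cells (-0.03 ± 0.08, 0.75). The responses of both genes differed between genotypes (interaction 0.48 ± 0.09 for Tnfrsf1a and -0.63 ± 0.10 for Casp8, edgeR adjusted p = 1.69e-07 and 2.75e-08). Tnfrsf10b, a TRAIL receptor, rose by 1.40 ± 0.16 in Adar-null and 1.28 ± 0.17 in control cells on the log2 scale, Ripk1, an adaptor kinase, by 1.25 ± 0.08 and 0.76 ± 0.09, and Cflar, which encodes the caspase-8 inhibitor FLIP, by 0.83 ± 0.06 and 0.98 ± 0.06. Casp8, the protease that cuts BID, was lower in Adar-null than in control cells under IFNb (-0.67 ± 0.07, edgeR adjusted p = 1.52e-16). A further list held 8 genes taken as partners of the outer mitochondrial membrane, not all of whose products lie in it. Of these 8, 1 was higher and 7 were lower in that comparison, against 36.4% and 36.2% of all tested genes. Vdac1, the main channel of the outer membrane, was among the lower ones (-1.55 ± 0.06), with Bcap31 (-0.71 ± 0.07) and Vdac2 (-0.53 ± 0.07), which encodes a partner of BAK.

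Of 6 tested turnover enzymes of MCL1 and BIM, 3 were higher in Adar-null than in control cells under IFNb and 3 were not called, against 72.6% of all tested genes called and 36.4% higher. Trim17 had a mean of 3.21 ± 0.551 CPM in Adar-null cells with IFNb, against 0.984 ± 0.269 CPM in control cells with IFNb (log2 fold change 1.66 ± 0.42), and Usp24 (0.54 ± 0.06) and Huwe1, a ubiquitin ligase of MCL1 (0.16 ± 0.06), were also higher. Of 8 tested transcription factors known to act on BH3-only genes, 5 were higher and 2 lower in the same comparison, against 36.4% and 36.2% of all tested genes. Ddit3, which encodes the stress factor CHOP, had 287 ± 11.0 CPM in Adar-null cells with IFNb, 107 ± 8.37 CPM with vehicle, 75.9 ± 7.12 CPM in control cells with IFNb and 111 ± 7.84 CPM with vehicle. Atf4 had 626 ± 22.4 CPM in Adar-null cells with IFNb, 618 ± 4.45 CPM with vehicle, 149 ± 1.67 CPM in control cells with IFNb and 599 ± 7.19 CPM with vehicle. E2f1 was lower in Adar-null than in control cells under IFNb (-3.33 ± 0.15), and Irf1, an interferon-induced factor, rose with IFNb by 3.09 ± 0.12 in Adar-null and 2.45 ± 0.13 in control cells. Trp53, which encodes p53 and is named here after its values were seen, had 135 ± 5.54 CPM in Adar-null cells with IFNb, 69.0 ± 1.80 CPM with vehicle, 76.4 ± 1.26 CPM in control cells with IFNb and 61.7 ± 1.52 CPM with vehicle.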

How the data were processed

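The libraries were strand-marked, made after ribosomal RNA depletion and read as 37 bp pairs, per the labels' protocols. The submitters' processing notes name mm10 and the tools HTSeq 0.6.1p1, Bowtie2 2.2.4, Trimmomatic 0.33, bcl2fastq 2.19.1 and DESeq2, without their settings or the annotation. The authors deposited whole-number counts per gene symbol with no normalisation. From these counts, genes were kept by filterByExpr, scaled by TMM and tested in 1 fit of all 12 libraries (edgeR 4.0.16 in R 4.3.3, robust glmQLFit, glmQLFTest, 1 term per group), with Benjamini-Hochberg adjustment over all tested genes and a threshold of 0.05. Standard errors of log2 fold changes are Wald errors from the fitted variance, not below counting error. The common biological coefficient of variation was 0.0397. The fit was tested on simulated data in which few genes were changed. That setting differs from these data, in which most tested genes were called in the comparisons with IFNb, so it does not check the scaling here. The alternatives were other scalings, no filter, DESeq2 1.42.0, limma-voom (limma 3.58.1), other fits, and each library left out. The members and lists were chosen with earlier results of these data known. Besides members, up to 3 called genes per list and comparison with the largest absolute log2 fold change, genes overlapping a member's exons and the 2 genes most like each member were named. An arm with interferon-gamma was not analysed here. Some genes that this rule or the marker lists hold are not reported here.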

Additional observations from a re-analysis of the deposited data

Results flagged for a closer look

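For 7 of the 9 tested genes the response to IFNb differed between Adar-null and control cells by the test of the difference itself (edgeR quasi-likelihood, interaction term, Benjamini-Hochberg adjusted p under 0.05; 59.3% of all genes tested were called). The difference, Adar-null minus control response on the log2 scale, was 2.83 for Bbc3, which rose in Adar-null and fell in control cells, 0.85 for Bid and 0.37 for Bax, which rose in both genotypes. It was 0.43 for Bcl2, which rose in Adar-null and fell in control cells, and -0.28 for Mcl1, which fell in Adar-null and rose in control cells. It was -0.40 for Bak1, which fell in Adar-null cells and was not called in control cells, and -0.27 for Bcl2l1, which rose in both. Some of these calls ended in some alternatives. They were the control responses of Bbc3, Bcl2 and Mcl1, the Adar-null response of Bcl2 and the difference of responses of Bcl2l1.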

How the results depend on the processing

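Over the 5 comparisons, the 45 results of single family genes were recomputed under the alternatives, giving 765 values, of which 714 kept direction and side of the threshold, 34 lost a call, 5 gained one and 12 changed sign. All 12 concern genes that were not called; the cause was not tested. Over all alternatives, Bad ranged from -0.0394 to 0.0989 between genotypes under IFNb. It was below 0 without Adar-null IFNb library 3 (-0.0394) or control IFNb library 3 (-0.0375). Under vehicle the ranges were -0.140 to 0.0346 for Bbc3, -0.148 to 0.100 for Bad, -0.0858 to 0.0172 for Bak1 and -0.0277 to 0.106 for Bax: Bbc3 was 0.0346, Bad 0.0817 and Bak1 0.0172 without Adar-null library 1, Bad was 0.100 without control library 3, and Bax was -0.0104 and -0.0277 without Adar-null or control library 2. The interaction of Bad ranged from -0.0645 to 0.183 and was -0.00833 and -0.0460 without Adar-null IFNb library 3 or vehicle library 1, and -0.00311 and -0.0645 without control IFNb library 3 or vehicle library 3.

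The 753 genes called between genotypes under vehicle were 322 with DESeq2 and 354 at an adjusted p under 0.01, and 308 to 723 with 1 library left out (308 without control library 2, 393 and 463 without Adar-null library 1 or 2). In the control response, 3 family genes were higher with library size as the only scaling or at an adjusted p under 0.01, and 1 (DESeq2) or 0 (adjusted p under 0.01) were lower; with 1 library left out 4 to 5 were higher and 0 to 2 lower. With 1 library left out, the genes called ranged from 8001 to 8126 between genotypes under IFNb, 7971 to 8136 for the Adar-null response, 5533 to 5763 for the control response and 6526 to 6702 for the interaction. Replicate numbers did not pair the libraries: deviations of same-numbered libraries correlated at -0.100 to 0.0618, and 3 of 12 libraries correlated best with their own number. With the replicate number as a block, 8347, 711, 8338, 6075 and 6816 genes were called (Adar-null against control with IFNb and with vehicle, IFNb in Adar-null and in control cells, interaction), and no count of family genes changed. Counts limit the precision: 95% intervals span over 0.5 on the log2 scale for Bcl2l11 and Bad in all 5 comparisons, for Bbc3 in 3 and for Bid in 2.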

Other observations

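Fas, the death receptor gene, was singled out after its values were seen, and it had too few counts for a test. It had 17 counts over the Adar-null libraries with IFNb, 4 to 8 in each, and 0 in each library of the other groups. Set against the limit of 3 counts per group, Fas was 5.80-fold higher there than under vehicle in Adar-null cells. By the same limit it was 5.92-fold higher than in control cells with IFNb and 5.37-fold higher than in control cells with vehicle. The limit covers the counting error of the groups at 0 and not that of the 17 counts, so these folds are not lower bounds.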
